A study of Mus musculus with 2 samples.

Results

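The cells described here are contractile smooth muscle cells of the mouse aorta with at least 2 transcripts of Pln. Pln encodes phospholamban, a small membrane protein of the sarcoplasmic reticulum. They were chosen by rule from 2 single-cell RNA-seq libraries, in which each unique molecular identifier (UMI) stands for 1 captured transcript. A member had at least 200 detected genes, at most 20% mitochondrial UMIs, at least 2% of UMIs from Acta2, Myh11, Tagln and Cnn1 together, less than 0.1% from Vcam1, Spp1 and Lum together, no Ptprc UMI, at most 1 Pecam1 UMI and at least 2 Pln UMIs. The rule found 102 cells among 16521 that passed the limits on genes and mitochondrial UMIs, of which 24 came from the DMSO library and 78 from the inhibitor library. Pln and the other 9 genes of the rule are used below only as a description.

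Both libraries came from the aorta of Apoe-/- mice aged 12 weeks, which lack apolipoprotein E and have high plasma cholesterol, with an abdominal aneurysm induced by angiotensin II, so both share the gene loss and the disease model. The vessel was cut into 5 segments and digested, and 5000 cells were the target for each library. One library was labelled with initials read as DMSO, a solvent, and the other with initials read as inhibitor. The sources used here do not name the inhibitor or its dose, and do not say how many animals were pooled or from which segment a cell came. With 1 library per group there are no replicates, so no test was made, and every interval below covers counting error only. The groups cannot be told apart from the libraries.

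Phospholamban binds the calcium pump of the sarcoplasmic reticulum, SERCA2, which Atp2a2 encodes, and slows the return of calcium to the store. Phosphorylation by cyclic AMP or cyclic GMP dependent kinases relieves this brake, and the muscle then relaxes faster. It is best known from heart muscle and is also made by smooth muscle, where contraction is set by cytosolic calcium through calmodulin and the myosin light chain kinase. Small heat shock proteins such as Cryab and Hspb1 bind unfolding proteins and desmin filaments in muscle, and HSP70 chaperones such as Hspa1a refold proteins with ATP.

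Pln lies on chr10:53337667-53345987 (GRCm38, plus strand), inside the span of Cep85l, which is read from the other strand. The sequence before its start is shown because the gene defines the cells, and the sequences of Hspa1a and Hspb1 because these genes stood among the most unequal between the libraries. Rergl was among the genes furthest above the remaining contractile cells, and its 30 bases hold the one CArG box found near the start of a gene of that kind. All are from RefSeq on GRCm38.p6, 5′ to 3′ on the strand of the gene, and those of Pln, Hspa1a and Hspb1 end at the base before the GENCODE M21 gene. The bases of Rergl lie inside its GENCODE gene, with the match 49 bases before the RefSeq start.
Pln, chr10:53337436-53337666: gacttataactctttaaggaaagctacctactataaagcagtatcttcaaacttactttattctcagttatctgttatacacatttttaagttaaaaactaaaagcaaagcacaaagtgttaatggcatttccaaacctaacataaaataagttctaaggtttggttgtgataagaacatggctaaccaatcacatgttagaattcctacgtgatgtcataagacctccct
Rergl, chr6:139501939-139501968: acaaggacagCCATAAAAGGcactttcaaa
Hspa1a, chr17:34972157-34972406: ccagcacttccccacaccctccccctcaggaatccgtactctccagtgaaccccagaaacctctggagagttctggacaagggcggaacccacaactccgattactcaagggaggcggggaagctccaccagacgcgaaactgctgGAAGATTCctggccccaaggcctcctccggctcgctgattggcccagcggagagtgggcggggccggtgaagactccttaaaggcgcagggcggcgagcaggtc
Hspb1, chr5:135887669-135887918: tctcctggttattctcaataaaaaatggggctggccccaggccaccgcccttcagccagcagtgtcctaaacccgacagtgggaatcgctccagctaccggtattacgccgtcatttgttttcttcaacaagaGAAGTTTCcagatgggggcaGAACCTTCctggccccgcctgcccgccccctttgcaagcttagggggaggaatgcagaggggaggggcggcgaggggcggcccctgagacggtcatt

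Capitals mark GAANNTTC in Hspa1a and Hspb1, the inverted repeat of the heat shock element, and the CArG box, the serum response factor motif, in Rergl. The printed bases of Pln hold neither motif. GAANNTTC, TTCNNGAA and the CArG box were searched in windows of 300 bases around each start, and each is its own reverse complement, so a search covers both strands. GAANNTTC stood in 7.86% of all 32851 windows, TTCNNGAA in 8.52% and the CArG box in 1.63%. The windows of Hspa1a and Hspa1b, neighbouring HSP70 genes, were the same at 296 of 300 bases. Their transcripts were not compared, so how reads were assigned within the pair is not known and the values of each are uncertain. A match is a description of letters and no evidence of binding.

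The label was checked against its markers. Sorbs2, which encodes an actin-linked adaptor of the Z-disc and dense bodies, was far higher in the members than in contractile cells with no Pln UMI, called Pln-zero cells here (444 cells in the DMSO and 2715 in the inhibitor library). Its level was 1775 CPM, the UMIs of a gene summed over a set of cells and scaled by the total of the set, in the 24 DMSO members against 298 in Pln-zero cells, and 1459 against 230 CPM in the inhibitor library. Cryab went against its use as a marker: DMSO members had 421 CPM and Pln-zero cells 748, so the ratio was 0.563 (0.468 to 0.672). In the inhibitor library Cryab was 2998 and 2283 CPM, a ratio of 1.31. Myh11, smooth muscle myosin heavy chain and part of the rule, was 6903 against 4086 CPM in the DMSO library and 5986 against 4707 CPM in the inhibitor library. Of the 8 smooth muscle markers 4 are genes of the rule and check nothing. Of the other 4, Myl9, the regulatory myosin light chain, was 6151 and 6875 CPM in DMSO and inhibitor members, Lmod1 1140 and 1143, Smtn 471 and 481 and Mylk 3065 and 1880.

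Markers of other cells were read as their summed level. Of 10 cardiomyocyte markers, 9 were at 0 in DMSO members and 6 in inhibitor members, among them Myh7, Tnni3, Nppa and Myl2, with sums of 16.7 and 20.7 CPM against 48.9 and 30.3 CPM in Pln-zero cells. Sln, which encodes the related regulator sarcolipin of atrial muscle, had no UMI in any member or Pln-zero cell. Of 9 skeletal muscle markers, 3 were detected in DMSO and 4 in inhibitor members. Their sum was 16.7 and 48.1 CPM, against 12.9 and 14.6 CPM in Pln-zero cells. It came from 5 of 24 and 21 of 78 members, with up to 191 and 945 CPM in a cell. Of 8 visceral smooth muscle markers Chrm2, Chrm3, Tacr2 and Hhip were at 0, and the other 4, with Des and Actg2 among them, summed to 1949 and 1804 CPM in 24 of 24 and 75 of 78 members, against 1980 and 1827 CPM in Pln-zero cells. The endothelial sum was 16.7 and 12.3 CPM. The fibroblast sum was 1197 and 1314 CPM, against 2443 and 2069 CPM in Pln-zero cells. The pericyte sum was 4138 and 3961 CPM, with Rgs5 the main part of it, against 4768 and 4581 CPM in Pln-zero cells. The adipocyte sum, with all 8 markers detected in DMSO members and 4 in inhibitor members, was 1040 and 410 CPM against 643 and 444 CPM in Pln-zero cells, and the macrophage sum was 181 and 57.5 CPM against 201 and 79.7 CPM. Both of these moved with the library, and their part in the differences between libraries was not tested.

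Depth was similar. The median member held 12059 UMIs in the DMSO library (5058 to 24581) and 13239 in the inhibitor library (1933 to 28036), and mitochondrial UMIs made up a median of 7.04% and 5.38%. The summed UMIs were unequal, 299152 against 1060688, so a gene of low level is measured less precisely in the DMSO members. The libraries held 101139161 and 79648307 UMIs over 9125 and 8149 barcodes. They shared 16 barcodes, 1 of them a member of the inhibitor library and none a member of both.

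How common the cells were depends on what they are counted against. They made up 4.85% (3.13 to 7.13, Clopper-Pearson 95% interval) of 495 contractile cells in the DMSO library and 2.70% (2.14 to 3.36) of 2891 in the inhibitor library. Of all cells kept they made up 0.277% (0.178 to 0.412) and 0.993% (0.785 to 1.24), the opposite order. Contractile cells were 5.71% of the DMSO and 36.8% of the inhibitor library. With every cell thinned to 3000 UMIs, so that the limits apply at 1 depth, the share of contractile cells was 2.61% (14 of 536) and 0.837% (25 of 2987). Thinning left out 15 and 83 contractile cells as shallower than that. The log2 ratio of the shares was -0.85, and the interval formed from the opposite ends of both, -1.74 to 0.10, held 0. An interval formed in this way is wider than a 95% interval of the ratio. That it holds 0 therefore cannot decide whether the lower share among contractile cells goes beyond counting error. After thinning to 3000 UMIs the log2 ratio was -1.64 (-3.002 to -0.22), but at 5000 UMIs it was -1.21 (-2.43 to 0.07). Counting cells with at least 1 Pln UMI after thinning gave -0.81 (-1.71 to 0.16) at 3000 and -0.83 (-1.64 to 0.03) at 5000 UMIs. Of these 4 thinned intervals, formed in the same wide way, 3 held 0. At full depth at least 1 Pln UMI was held by 51 of 495 and 176 of 2891 contractile cells. Their log2 ratio was -0.76, and its interval, -1.35 to -0.15, left out 0.

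Free RNA was small for Pln. At least 1 Pln UMI was found in 9 of 1924 DMSO leukocytes (0.468%) and 5 of 700 inhibitor leukocytes (0.714%), and at least 2 in 1 cell of each, with median depths of 7478.5 and 7657.5 UMIs. Pln UMIs per member ran from 2 through a median of 6 to 30 in the DMSO library, and from 2 through 4 to 18 in the inhibitor library. Exactly 2 UMIs, the lowest value inside the limit, were held by 6 and 19 members, and 27 and 98 contractile cells lay just outside with 1. The lowest contractile shares inside the limit were 2.002% and 2.21%, and the highest outside 1.97% and 1.84%. No contractile cell with 2 Pln UMIs was left out for Vcam1, Spp1 and Lum.

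Against Pln-zero cells of their own library, the members differed most in a small group of genes that the remaining contractile cells almost lacked. A gene is called higher or lower here if its CPM differed at least 1.5-fold and the 95% counting interval left out 1, among genes with at least 20 CPM in 1 set and 30 UMIs over both. In the DMSO library 886 of 6995 genes were higher (12.7%) and 537 lower (7.68%), and in the inhibitor library 447 of 6028 were higher (7.42%) and 535 lower (8.88%). In both libraries 251 of 5846 genes were higher (4.29%) and 263 were lower (4.50%). Since the cells were split on Pln, any gene that varies with Pln from cell to cell falls into these counts.

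Olfr558, an olfactory receptor family gene on chr7:102702215-102712064, led the list. It was 264 CPM in DMSO members against 0.467 in Pln-zero cells, and 71.7 against 0.220 CPM in the inhibitor library. Of the members 16 of 24 and 25 of 78 held a UMI of it, against 0.225% and 0.147% of Pln-zero cells, which held 3 and 7 UMIs of it in all. The ratio was 565-fold (186 to 2799) in the DMSO and 326-fold (151 to 839) in the inhibitor library. Rergl, which encodes a Ras-like small GTPase, was 267 CPM in DMSO members and had no UMI in the 444 Pln-zero cells, which makes it at least 572-fold higher against 3 counts over that set. In the inhibitor library it was 48.1 against 0.157 CPM, 306-fold (123 to 984) higher. Rergl was concentrated in some members: 12 of 24 and 21 of 78 held it, with up to 26 and 12 UMIs in a cell.

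Nrip2, a nuclear receptor interacting protein, was 165-fold higher in the DMSO library (231 against 1.40 CPM) and 45.4-fold in the inhibitor library (125 against 2.76 CPM). Tcf15, a basic helix-loop-helix factor of early mesoderm, was 53.6-fold and 45.1-fold higher. S1pr3, a G protein coupled receptor for sphingosine 1-phosphate, was 16.6-fold and 21.8-fold higher, at 194 and 218 CPM. The other genes among the 10 highest were Lrrc10b, Higd1b, Gprc5c, Tesc and Ndufa4l2, between 9.74-fold and 46.9-fold higher in either library. Ndufa4l2, a mitochondrial protein named among the pericyte markers here, was 197 against 4.21 CPM in the DMSO library and 33.0 against 2.89 CPM in the inhibitor library.

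Of 23 measured vasoactive receptors and G protein signalling genes 4 were higher in both libraries, Ednra, Rgs4, P2rx1 and Rgs7bp, and 2 lower, Plcb4 and Lmcd1, against 4.29% and 4.50% of all genes. Ednra, the endothelin receptor of smooth muscle, was 11.4-fold and 10.0-fold higher. In other lists Kcna5, a voltage-gated potassium channel, was 13.8-fold and 8.71-fold higher. Notch3, a receptor of arterial smooth muscle, was 445 against 40.0 CPM in the DMSO library and 209 against 46.4 CPM in the inhibitor library. The T-box factor Tbx2 was 10.1-fold and 7.55-fold higher, and the orphan nuclear receptor Nr2f2 3.36-fold and 2.19-fold. Sparcl1, a secreted matrix protein, was 5272 against 724 CPM and 3647 against 477 CPM, and Aspn, asporin, a small proteoglycan, was 10.4-fold and 6.01-fold higher.

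The gene lists were chosen with earlier results of these data known and are described by counts. Of 13 measured genes of sarcoplasmic reticulum calcium handling 2 were higher in both libraries, Hrc and Tmem38b, and none lower, against 4.29% and 4.50% of all measured genes. Hrc, a calcium-binding protein of the store, was 73.5 against 14.02 CPM and 41.5 against 14.3 CPM. Atp2a2, the pump that phospholamban holds back, was 665 against 365 CPM, 1.82-fold (1.57 to 2.11), in the DMSO library and 488 against 402 CPM, 1.21-fold (1.11 to 1.33), in the inhibitor library. Ryr2, the release channel, was 70.2 against 70.4 CPM and 54.7 against 62.5 CPM. Casq2, the calcium store protein calsequestrin, was too low for a call: it had 8 UMIs in 4 DMSO members and 11 in 7 inhibitor members, with 1 cell holding 50.0% and 45.5% of them, and was singled out after its values were seen.

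The counts of the next 4 lists stand against 4.29% of all genes higher and 4.50% lower in both libraries. Of 19 plasma membrane transporters 4 were higher, Kcna5, Kcnk3, Cacna1c and Atp2b1, and 1 lower, Abcc9. Of 27 genes of cyclic nucleotide signalling 8 were higher, led by Pde1a (4.06-fold and 2.96-fold), a calcium-activated phosphodiesterase, and Gucy1a1 (2.92-fold and 1.62-fold), a subunit of the nitric oxide receptor, and 1 was lower, the natriuretic peptide receptor Npr1. Of 24 contractile genes outside the rule 4 were higher, Mylk, Mustn1, Ckb and Pcp4l1, and Csrp2 lower. Mylk, the kinase that starts contraction, was 3065 against 1231 CPM and 1880 against 914 CPM. Of 34 Z-disc and filament genes 6 were higher, with Sorbs2, Synm (2.92-fold and 2.34-fold) and Des (2.14-fold and 1.70-fold), and 6 lower. The median log2 ratio of the contractile list was 0.17 in both libraries, against 0.05 and -0.01 over all measured genes.

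Of 35 measured matrix genes 16 were lower in both libraries and 3 higher, against 4.50% lower and 4.29% higher of all genes, and the median log2 ratios were -0.82 and -0.53. The fibroblast marker sum was lower too, 1197 against 2443 and 1314 against 2069 CPM, and its part in this was not tested. Without genes low relative to leukocytes, endothelial cells or fibroblasts, the count of all genes lower in both libraries was 146 in place of 263. Eln, elastin, was 1137 against 2804 CPM and 968 against 2334 CPM. Fbln5, which organises elastic fibres, was 90.3 against 482 CPM and 110 against 448 CPM, and Col1a1 511 against 1484 CPM and 659 against 1061 CPM. Of 19 measured genes of modulated smooth muscle 7 were lower and none higher, with Mgp, a calcification inhibitor, at 4429 against 16323 CPM and 4912 against 10056 CPM. The fate factors Gata6 (4.35-fold and 2.82-fold lower) and Tbx18 were lower, and Hey2, Notch3, Tbx2, Nr2f2 and Zeb2 were higher.

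The lowest genes formed a group of their own. Rbp4, a retinol carrier, was 30.1 against 427 CPM in the DMSO library and 64.1 against 647 CPM in the inhibitor library, and 19 of 78 inhibitor members held it against 80.3% of Pln-zero cells. Ace, angiotensin converting enzyme, had 2 and 7 UMIs, ratios of 0.0905 (0.0109 to 0.329) and 0.143 (0.0575 to 0.296). Wnt16, a secreted signal, had 2 UMIs in DMSO members, both in 1 cell, a ratio of 0.0544 (0.00658 to 0.197), and was 18.9 against 94.8 CPM in the inhibitor library. Ccdc42 had no UMI in DMSO members and 61.2 CPM in Pln-zero cells. Fmo2, a monooxygenase, was 96.9 against 581 CPM and 119 against 721 CPM. In DMSO members 86.2% of its UMIs came from 1 cell.

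**Figure D1:**
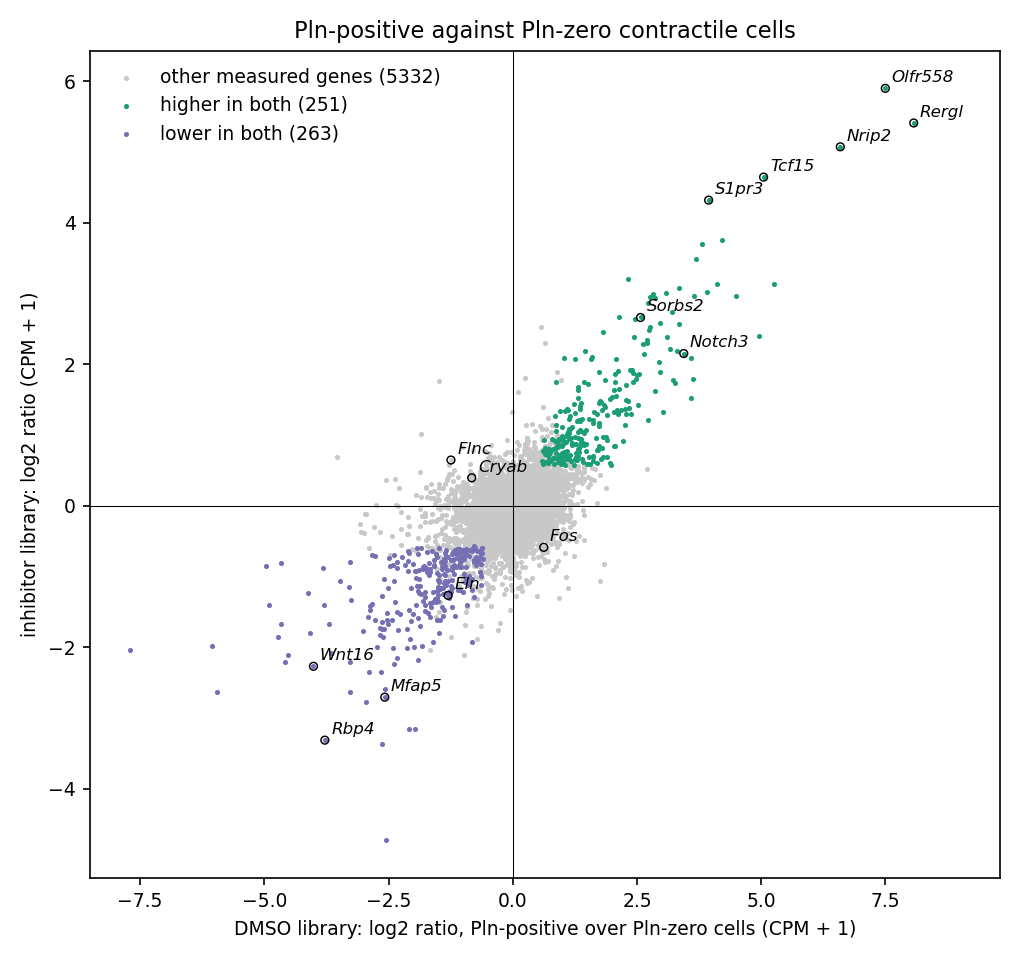
Log2 ratio of CPM plus 1 in Pln-positive over Pln-zero contractile cells, in the DMSO library (x) and the inhibitor library (y), with 1 point for each of 5846 measured genes. The 251 genes higher in both and the 263 lower in both lie along the diagonal, with Olfr558 and Rergl at the top right, Rbp4 at the lower left and Cryab, Flnc and Fos on opposite sides of 0 in the 2 libraries.

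Genes chosen for their difference by Pln were also read at each number of Pln UMIs. In cells with 0, 1, 2, 3 to 4, 5 to 9 and 10 or more Pln UMIs, Sorbs2 was 298, 509, 1020, 1515, 2463 and 2135 CPM in the DMSO library, and 230, 705, 1081, 1553, 1508 and 2016 CPM in the inhibitor library. Olfr558 was 0.467, 0, 0, 153, 371 and 481 CPM in the DMSO library, with no UMI at 1 and 2 Pln UMIs, and 0.220, 4.17, 23.6, 56.5, 86.0 and 244 CPM in the inhibitor library. Rbp4 ran the other way, at 427, 406, 111, 0, 0 and 0 CPM in the DMSO library and 647, 300.5, 135, 43.4, 40.5 and 0 CPM in the inhibitor library. The 10 inhibitor cells with 10 or more Pln UMIs also had 46.9 CPM of Rgs5, against 3992 CPM in Pln-zero cells. The steps were cut on raw Pln UMIs, each holds its own cells, and depth differed between them. Median UMIs ran from 9243 to 16473 in the DMSO library and from 8746 to 14308 in the inhibitor library. The steps are a description, and the part of depth in them was not tested.

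**Figure D2:**
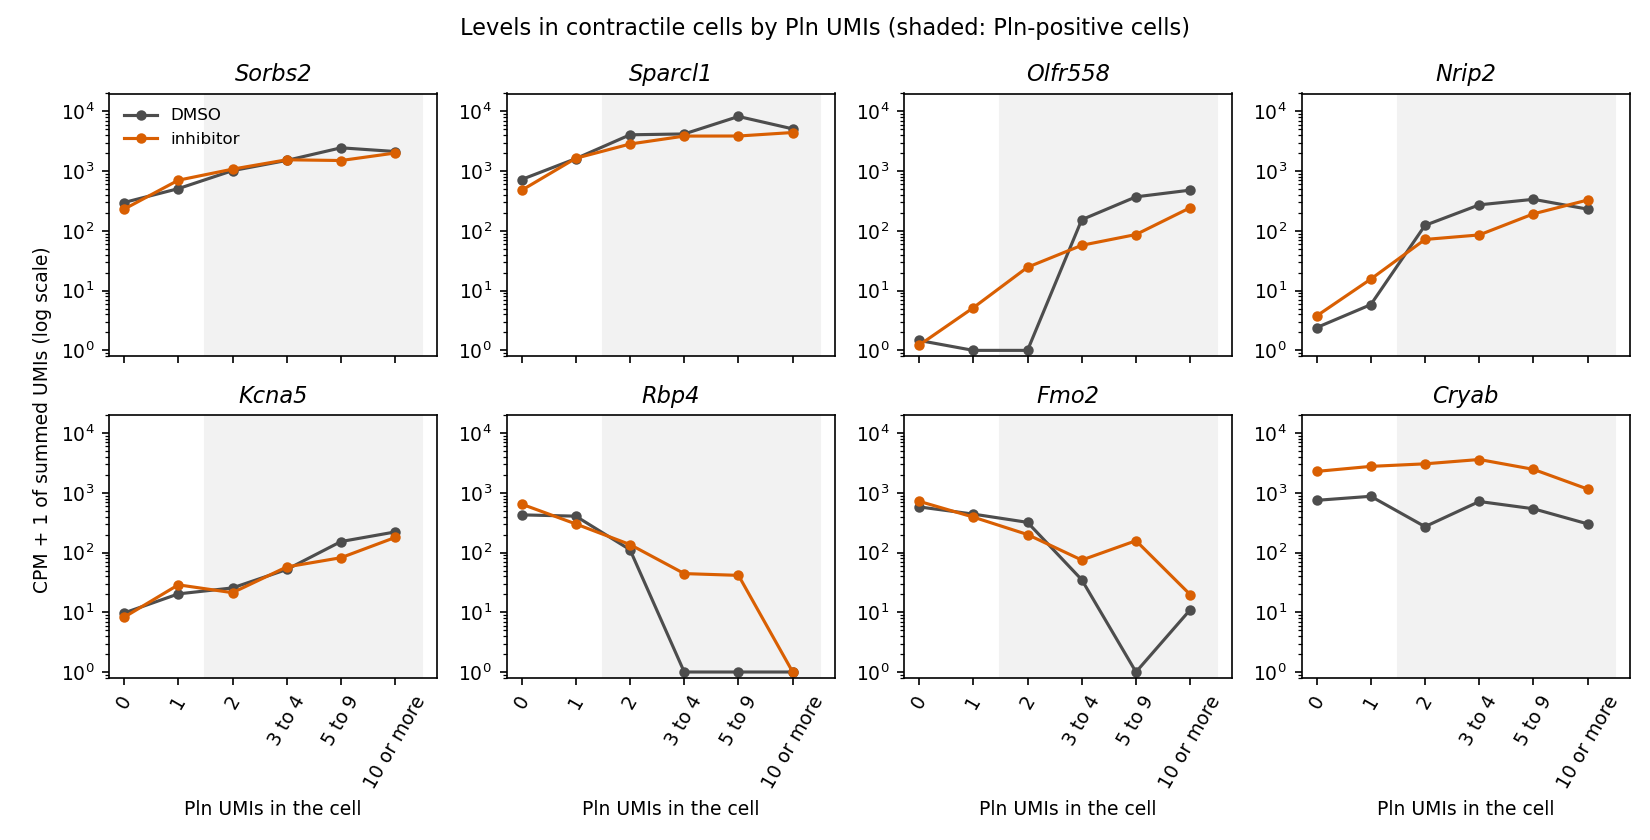
CPM plus 1 of 8 genes (log scale) in contractile cells grouped by their Pln UMIs, with 1 line per library and the Pln-positive groups shaded. Sorbs2, Sparcl1, Olfr558, Nrip2 and Kcna5 are higher at more Pln UMIs and Rbp4 and Fmo2 lower, while Cryab differs between the libraries in all groups.

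The members were not of one kind. At least 3 UMIs over Rergl, Olfr558, Nrip2, Tcf15 and S1pr3 were held by 19 of 24 DMSO members and 54 of 78 inhibitor members, against 12 of 444 and 65 of 2715 Pln-zero cells. At least 3 UMIs over Rbp4, Fmo2, Sost and Mfap5 were held by 2 of 24 and 18 of 78 members, against 391 of 444 and 2552 of 2715 Pln-zero cells. Only 1 and 6 members held both, and 12 inhibitor members held the second group without the first. Both groups were put together after the values were seen. After thinning to 3000 UMIs, 79.2% of DMSO and 64.9% of inhibitor members held any UMI of the first group, and 2.80% and 2.89% of Pln-zero cells.

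Variation was measured as the Fano factor, variance over mean, in cells thinned to 3000 UMIs, with 24 and 77 members deep enough. Of 3349 genes with a mean of at least 0.1 UMI, 70 were above 2 in both libraries, against medians of 0.957 and 1.06 over all. The 10 highest were Mgp, Malat1, Tmsb4x, Rgs5, Fn1, Tpm2, Igfbp7, Col3a1, Ccn2 and Gm42418. Rgs5, a G protein brake known from pericytes and arterial smooth muscle, had no UMI in 13 of 24 and 24 of 77 thinned members and up to 81 and 41 in others. At full depth 11 of 24 and 40 of 78 members held at least 10 Rgs5 UMIs. Those members were deeper, with medians of 14641 against 10660 UMIs and 15049.5 against 9507.5 UMIs. Rergl was 170 against 378 CPM in them in the DMSO library and 12.5 against 102 CPM in the inhibitor library, and the part of depth in this was not tested.

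**Figure D3:**
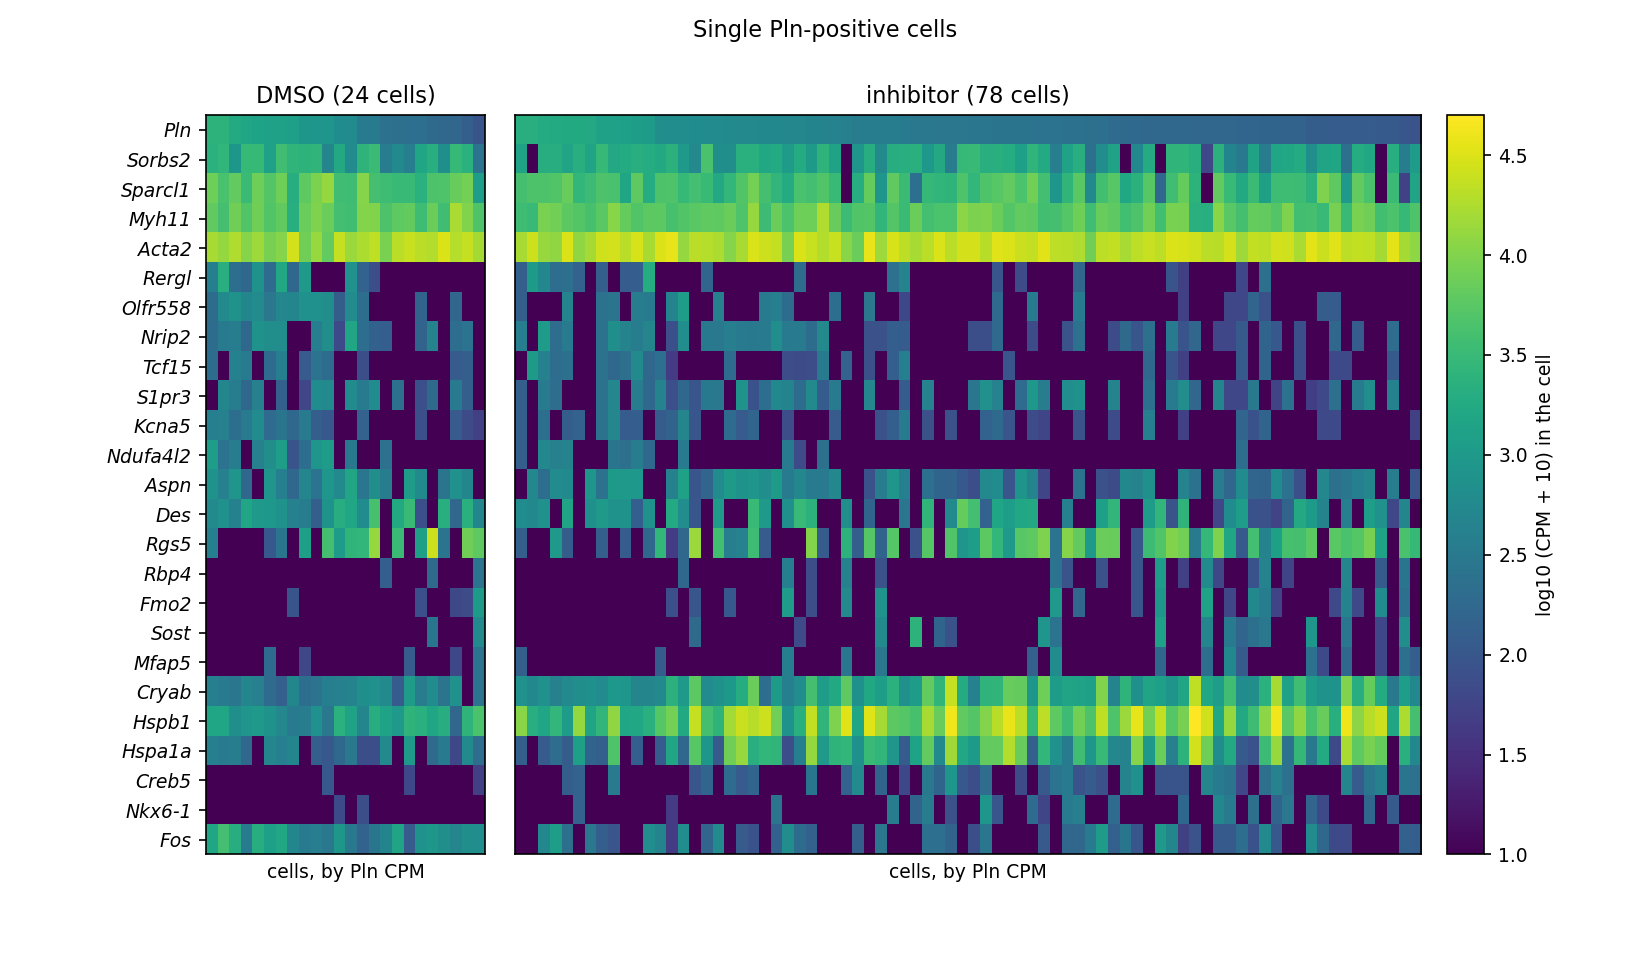
Log10 of CPM plus 10 for 25 genes (rows) in each Pln-positive cell (columns, from high to low Pln CPM within a library), the darkest colour standing for no UMI. Acta2 and Myh11 are present in all 102 cells, Rgs5 is high in some and absent in others, Rbp4, Fmo2, Sost and Mfap5 appear mainly at lower Pln, and Hspb1 and Hspa1a reach high levels in inhibitor cells.

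Between the libraries, chaperones were the clearest difference within the members. Inhibitor over DMSO, 267 of 5452 genes were higher (4.90%) and 551 lower (10.1%), and the median over all was -0.09 in log2. Scaling by the median ratio of measured genes in place of the totals gave 353 higher and 433 lower. In Pln-zero cells 3.13% of measured genes were higher and 4.81% lower. After thinning to 3000 UMIs 14 DMSO and 25 inhibitor cells still met the rule. In these 591 genes were measured, of which 60 were higher and 55 lower.

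Of 32 ATP-dependent chaperones 26 were higher and none lower, against 4.90% of all genes, and their median was 1.30 in log2. In Pln-zero cells 24 of 33 were higher, median 1.22, against 3.13% of all genes there. Hspa1a, an inducible HSP70, was 264 CPM in DMSO and 3677 CPM in inhibitor members, a ratio of 13.9 (11.1 to 17.6), against 6.06 (5.86 to 6.27) in Pln-zero cells. Per cell Hspa1a ran from 0 through a median of 2 to 18 UMIs in DMSO members and from 0 through 17 to 353 in inhibitor members. It was at 100 or more UMIs in 13 of 78 inhibitor and in no DMSO member, so the high values were in a part of the inhibitor cells and the ranges overlapped below. Hspa1b (14.2-fold), Dnajb1 (7.49-fold), Hspe1 (4.94-fold), Hsph1 (4.89-fold) and Hspa8 (4.46-fold) were also higher.

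Of 8 small heat shock and partner genes 5 were higher, Hspb1, Cryab, Bag3, Hspb8 and Hspb7, and none lower, against 4.90% and 10.1% of all genes. In Pln-zero cells 4 of 8 were higher, against 3.13% of all genes there. Hspb1 was 1544 and 13032 CPM, a ratio of 8.44 (7.69 to 9.28), against 4.67 in Pln-zero cells. Per cell it ran from 3 through 9 to 111 UMIs in DMSO and from 4 through 102 to 864 in inhibitor members. Cryab was 421 and 2998 CPM, 7.12-fold (5.96 to 8.57), against 3.05-fold in Pln-zero cells, and Hspb7 2.12-fold against 1.00. The DMSO members lay below DMSO Pln-zero cells in Hspa1a (ratio 0.489), Hspb1 (0.537) and Cryab (0.563). The inhibitor members had ratios of 1.12, 0.971 and 1.31. Hsp25-ps1, a pseudogene copy of Hspb1, was 7.19-fold higher and may share its reads.

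Among the 31 chaperone and small heat shock genes higher in the inhibitor library, 26 had a promoter window, and 13 of these (50.0%) held GAANNTTC, against 6.60% of the 4304 measured genes with a window. TTCNNGAA stood in 6 of the 26 (23.1%, against 8.30%), and the windows of Hspa1a and Hspb1 shown above are among the 13. So is that of Hspa1b, which matches that of Hspa1a at 296 of 300 bases, so the 13 windows are not all separate. Hspd1 and Hspe1 each held both GAANNTTC and TTCNNGAA, and whether their windows share bases was not examined. Genes higher in the Pln-positive cells of both libraries held GAANNTTC in 13 of 177 windows (7.34%) and a CArG box in 1 (0.565%, against 1.995% of 4611), the window of Rergl.

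Some genes outside these lists were higher too. Creb5, a transcription factor of the CREB family, was 10.0 CPM in DMSO members, where it had 3 UMIs in 3 cells, and 143 CPM in inhibitor members, where 44 of 78 cells held it, a ratio of 14.3 (4.80 to 70.1) against 1.85 in Pln-zero cells. Nkx6-1, a homeodomain factor, had 2 UMIs in DMSO members and 87 in 24 inhibitor members, 12.3 (3.30 to 103) against 1.15 in Pln-zero cells. Tnfrsf12a, the receptor of TWEAK, was 104 and 647 CPM, and Mknk2, a MAP kinase interacting kinase, 13.4 and 93.3 CPM. Of the Z-disc list 6 of 33 were higher, with Xirp1, Itga5, Ankrd1, Tcap, Filip1l and Pdlim1, and 5 lower, against 4.90% and 10.1% of all genes. The calls of Ankrd1 and Tcap end without the inhibitor cell that holds the most of each.

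Immediate early genes were mostly lower. Of 21 measured 13 were lower and 3 higher, against 10.1% and 4.90% of all genes, and the median was -0.84 in log2. Pln-zero cells had 7 of 22 lower and 2 higher, median -0.33, against 4.81% and 3.13% of all genes there. Fos, an AP-1 subunit, was 832 CPM in DMSO and 159 CPM in inhibitor members, a ratio of 0.191 (0.157 to 0.234), against 0.445 in Pln-zero cells. It was found in 24 of 24 DMSO and 49 of 78 inhibitor members. Egr1 was 655 and 217 CPM and Fosb 381 and 82.0 CPM, while Jund (1.97-fold), Cebpb (177 and 354 CPM) and Atf3 (2.52-fold) were higher. Atf3 turned direction after thinning, to -0.42 in log2 at 3000 UMIs, among the 14 DMSO and 25 inhibitor members then left.

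The lists around calcium and relaxation are read against 10.1% of all genes lower and 4.90% higher. Of 26 cyclic nucleotide genes 9 were lower and 2 higher (median log2 ratio -0.55), of 20 transporters 6 were lower and none higher (median -0.39), and of 12 calcium store genes 3 were lower, Hrc, Mrvi1 and Stim1 (median -0.33). Gucy1a1 was 404 and 166 CPM, a ratio of 0.410 (0.324 to 0.521), against 0.742 in Pln-zero cells. The calls of Hrc and Stim1 end without the DMSO cell that holds the most of each, which leaves 1 of the 12, Mrvi1. None of these 3 was called among the 11 DMSO and 60 inhibitor members with at least 4% of UMIs from the contractile genes. Kcna5 was 120 and 63.2 CPM, a ratio of 0.525 (0.345 to 0.810). Atp2a2 was 665 and 488 CPM, 0.734 (0.622 to 0.869), short of the fold limit, against 1.10 in Pln-zero cells. Pln itself, which the rule used, was 682 and 372 CPM.

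Of 26 smooth muscle transcription factors and Notch genes 8 were lower and none higher, against 10.1% and 4.90% of all genes. Notch3 was 445 and 209 CPM, 0.471 (0.378 to 0.588), against 1.16 in Pln-zero cells, and Hes1, a Notch target, 461 and 174 CPM, against 0.794. Nr2f2 was 605 and 268 CPM and Tbx2 104 and 50.0 CPM. The genes that set the members apart were lower in the inhibitor members: Olfr558 at 264 and 71.7 CPM, Rergl at 267 and 48.1, Nrip2 at 231 and 125 and Ndufa4l2 at 197 and 33.0. S1pr3 (1.12) and Tcf15 (0.643) were not called. Among members with at least 4% of UMIs from the contractile genes, Ndufa4l2, Kcna5 and Tbx2 were higher in the inhibitor library, by 1.92, 0.24 and 0.34 in log2. Notch3 was -0.16 in log2 there, against -1.08 over all members, and was no longer called. Members of the inhibitor library also held fewer Pln UMIs, and the part of this in the lower values was not tested.

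Of 24 contractile genes outside the rule 1 was higher, Myl12a, and 2 were lower, Mylk and Pcp4l1, near the 4.90% and 10.1% of all genes, which also stand beside the next 3 lists. Their median was 0.02 in log2. These 3 calls end among members with at least 4% of UMIs from the contractile genes. Of the genes used in the rule Acta2 was 17804 and 23380 CPM, Tagln 13913 and 20227, Cnn1 1294 and 2340 and Myh11 6903 and 5986. Of 14 muscle energy genes none was called. Of 34 matrix genes 3 were higher and 3 lower, and of 18 modulated genes 5 were higher, with Comp, Tnc, Ccn2 and Thbs1 among them, and 3 lower. Pln-zero cells had 11 of 19 modulated genes lower and none higher, median -0.70 in log2 against 0.19 in members. Of 35 matrix genes 4 were lower there and none higher, median -0.26 against 0.03 in members. Of all genes in Pln-zero cells 4.81% were lower and 3.13% higher. Ccn2, a matricellular protein, was 1090 and 2875 CPM, and Comp had 1 UMI in DMSO members and 51 in inhibitor members, a ratio of 14.4 (2.47 to 579), with 80.4% of the latter in 1 cell. Malat1, a nuclear RNA, was 46669 and 45709 CPM, a ratio of 0.979.

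Among the lowest ratios, Stmn1 (0.0546) and Ifi27l2a (0.124) rested on 1 DMSO cell with 83.9% and 77.9% of their UMIs. Cfd, an adipocyte gene, was 104 and 10.4 CPM, with the adipocyte sum at 1040 and 410 CPM. Cd93 was 96.9 and 6.60 CPM, with 29 UMIs in 8 DMSO members and 7 in 6 inhibitor members, and the endothelial sum was 16.7 and 12.3 CPM. Nr4a2, an early response nuclear receptor, was 170 and 23.6 CPM, against a ratio of 0.432 in Pln-zero cells.

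**Figure D4:**
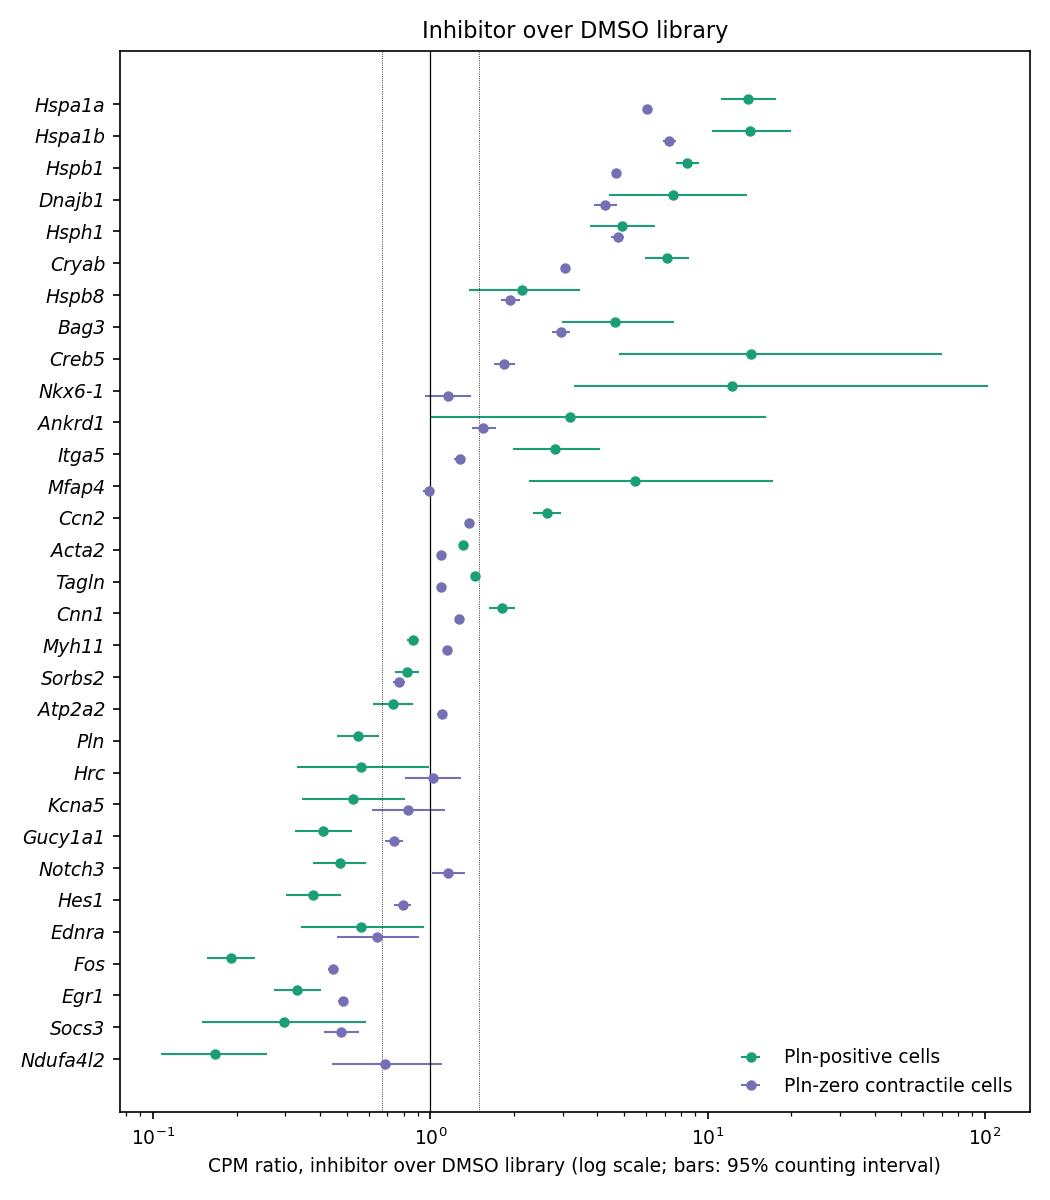
CPM ratio of inhibitor over DMSO library (log scale) for 31 genes in Pln-positive cells (green) and in Pln-zero contractile cells (purple), with 95% counting intervals and dotted lines at the 1.5-fold limits. Chaperones such as Hspa1a (13.9) and Hspb1 (8.44) lie to the right in both kinds of cell, and Fos (0.191) and Ndufa4l2 (0.167) to the left. In Pln-positive cells Acta2, Tagln and Myh11 lie between the dotted lines and Cnn1 beyond the upper one.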

How the data were processed

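The deposited values are raw UMI counts per gene and barcode, which the authors made with Cell Ranger (version 6.1.1 per the file headers), on GRCm38 per the submitters' processing notes, which also name Seurat with no step given. Members and gene lists were chosen with earlier results of these data known. UMIs were summed per cell set and library, scaled to CPM and compared as ratios with exact conditional binomial 95% intervals. Log2 ratios added 1 CPM. Shares have Clopper-Pearson intervals. Named genes were the 10 highest and 10 lowest of each comparison among measured genes with at least 50 CPM in 1 set. Mitochondrial, ribosomal protein, haemoglobin, immunoglobulin, T cell receptor and rule genes were left out of these. Up to 4 called genes per list and direction, 10 fixed genes and the 10 most variable were added, 143 in all. Genes named beyond this, such as Casq2, Ryr2, Cebpb and Des, were chosen after their values were seen. Doublets were kept; Scrublet called 1 of the 102 members, at the threshold of the inhibitor library, since its own threshold for the DMSO library called 0 cells. The ratios were tested on simulated data. Gene coordinates are from GENCODE M21. Python 3.11.15, numpy 2.4.6, scipy 1.17.1, pandas 2.3.3, scanpy 1.11.5 and matplotlib 3.10.9 were used. Some genes are not reported here. No test between single libraries was made, and depth limits genes under 20 CPM.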

Additional observations from a re-analysis of the deposited data

Results flagged for a closer look

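Of the genes with at least 50 CPM in 1 set, 7 were called in opposite directions in Pln-positive over Pln-zero cells of the 2 libraries. The difference between the libraries was not tested. Bcas3 had a ratio of 3.67 in the DMSO and 0.546 in the inhibitor library. For Ifi27l2a it was 3.39 and 0.467, with 77.9% of the DMSO members' UMIs in 1 cell. Tspan7 had 1.86 and 0.536, Rhbdf1 1.79 and 0.521, Gm26917 1.57 and 0.632, and the AP-1 gene Fos 1.54 and 0.663. Flnc, which encodes the muscle filamin of the Z-disc, ran the other way, 0.418 in the DMSO library (60.2 against 144 CPM) and 1.57 in the inhibitor library (340 against 217 CPM).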

How the results depend on the processing

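The lower share among contractile cells kept its direction in all 9 alternatives, between -0.56 and -1.64 in log2. The counts of called genes moved by over 1.5 times only where listed below, and the cause was not tested. They stayed within 1.5 times in the other settings. Pln at least 1 UMI leaves more cells (51 and 176), the limit of 100 CPM fewer measured genes, and 2-fold the same cells and genes under a stricter call. Thinning applied the rule anew and left 14 and 25 members at 3000 UMIs and 15 and 37 at 5000 UMIs. Genes measured between the libraries then numbered 591 and 1405, against 5452. Those measured against Pln-zero cells numbered 5732 and 5943, against 5846. Genes higher and lower in the inhibitor library numbered 60 and 55 after thinning to 3000 UMIs, 119 and 105 at 5000 UMIs, 163 and 319 at 2-fold, and 151 and 258 above 100 CPM. The lower genes alone moved to 278 with contractile genes at least 4% of UMIs, and to 290 without the cell with the most UMIs of each gene, an alternative chosen after seeing the data. Genes higher and lower in Pln-positive than in Pln-zero cells of both libraries numbered 132 and 99 with Pln at least 1 UMI, 157 and 142 at 4% contractile UMIs, 129 and 109 at 3000 UMIs, 133 and 130 at 2-fold, and 91 and 115 above 100 CPM. The lower ones numbered 170 at 5000 UMIs and 146 without genes low relative to other cells. Of 74 named genes called between the libraries, 13 were called under every one of 14 settings, among them Ccn2, Cryab, Egr1, Fos, Gucy1a1, Hes1, Hspa1a, Hspa1b, Hspb1, Hspe1, Itga5 and Klf4.

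In log2, 11 genes changed sign or reached 0 in some setting. Mfap4 was -0.0179 with Pln at least 1 UMI. At 4% contractile UMIs Ndufa4l2 was 1.92, Kcna5 0.24, Ednra 0.27, Col5a2 -0.27 and Tbx2 0.34. At 3000 UMIs Ifi27l2a was 0.16, Hrc 0.57, Ednra 0.38, Tnc 0.00 and Atf3 -0.42. At 5000 UMIs Comp was 0.00 and Atf3 -0.0613. Among members with 3 UMIs over Rergl, Olfr558, Nrip2, Tcf15 and S1pr3, a setting also chosen after seeing the data, Comp was -0.53. Without the cell with the most UMIs of each gene, 14 named genes were no longer called, among them Stmn1, Ifi27l2a, Hrc, Ednra and Aspn. No paired analysis was possible because each group is 1 library, and no replicate could be left out.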
